A study of Homo sapiens with 6 samples.

Results

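Transcripts of 10 genes of glutathione synthesis, cystine import and glutathione use were compared in THP1 cells exposed to Withaferin A (WFA) or its vehicle. The 10 genes were chosen by name and role from the 26485 genes of the count table, with earlier results of these data known. The genes encode the cystine transporter subunits SLC7A11 and SLC3A2, the synthesis enzymes GCLC, GCLM and GSS, the reductase GSR, the peroxidases GPX1 and GPX4, and the degrading enzymes CHAC1 and GGT1. All 10 were found in the table and passed the filter on low counts, which kept 12854 genes. THP1 is a human cell line from an acute monocytic leukemia, and WFA is a steroidal lactone that reacts with thiol groups. The cells received DMSO, the vehicle, or WFA for 6 h, and 6 libraries made from total RNA were sequenced, 3 per group. The libraries come from 3 independent experiments, each with 1 DMSO and 1 WFA library. The main fit does not use this pairing, so its p-values measure the spread between libraries within a group. A fit with the replicate number as a block is given as an alternative. Its p-values measure little of the spread of a single gene, as the standard errors given below show. The sample labels give the WFA concentration in millimolar and the methods of the study in micromolar units, so it is left without a value here. Only 1 cell line, 1 time point and 1 concentration were sampled, and only transcripts were measured, not glutathione or cystine. In bulk RNA a change in the number of cells that express a gene and a change in its RNA per cell cannot be told apart.

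Glutathione is a tripeptide of glutamate, cysteine and glycine and the main soluble thiol of the cell. Cysteine usually limits its synthesis and enters many cultured cells as the oxidized dimer cystine, in exchange for glutamate. Glutamate-cysteine ligase joins glutamate to cysteine, glutathione synthetase adds glycine, peroxidases spend glutathione on peroxides, and glutathione reductase regenerates it with NADPH. Several of these genes are known targets of the transcription factor NRF2, which binds antioxidant response elements, and some of ATF4, which binds C/EBP-ATF response elements.

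Promoter sequences are shown for the ligase subunits GCLM, which rose, and GCLC, which did not pass the threshold, and for SLC3A2 and CHAC1, which both rose. RefSeq promoter windows of the GRCh38.p14 build, each 250 bases before and 50 after an annotated start, were matched for 7 of the 10 genes. They were searched on both strands for TGACNNNGC, the core of the antioxidant response element, and TGATGNAA, the core of the C/EBP-ATF response element. SLC7A11, GSS and GSR were not searched. Only part of each window is printed, from 250 to 26 bases before the RefSeq start for GCLM, from 250 to 29 for GCLC and SLC3A2, and from 220 to 191 for CHAC1. Capitals mark the matches that lie in the printed stretches, which run 5′ to 3′ on the strand of the gene.
GCLM, chr1:93909456-93909680, minus strand: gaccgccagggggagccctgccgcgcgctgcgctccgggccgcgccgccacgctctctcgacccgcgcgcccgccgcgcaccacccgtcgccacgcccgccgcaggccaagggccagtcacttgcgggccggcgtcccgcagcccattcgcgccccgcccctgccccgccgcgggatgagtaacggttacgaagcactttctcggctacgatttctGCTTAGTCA
GCLC, chr6:53545130-53545351, minus strand: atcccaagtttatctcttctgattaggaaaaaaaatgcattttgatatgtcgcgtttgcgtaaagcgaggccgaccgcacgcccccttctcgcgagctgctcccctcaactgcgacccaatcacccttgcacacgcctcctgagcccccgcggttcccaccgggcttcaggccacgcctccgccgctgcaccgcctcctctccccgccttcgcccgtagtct
SLC3A2, chr11:62881449-62881670, plus strand: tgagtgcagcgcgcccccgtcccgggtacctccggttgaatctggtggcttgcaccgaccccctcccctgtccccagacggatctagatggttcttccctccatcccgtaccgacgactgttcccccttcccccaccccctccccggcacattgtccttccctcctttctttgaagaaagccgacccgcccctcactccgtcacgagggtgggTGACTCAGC
CHAC1, chr15:40953251-40953280, plus strand: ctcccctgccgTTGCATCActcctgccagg

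The GCLM match, TGACTAAGC on the opposite strand, begins 34 bases before the annotated start. The single GCLC window held neither motif, and sequence farther upstream was not searched. In GENCODE release 29 the GCLC gene begins farther upstream than this window, at chr6:53616970. In 1 of the 3 SLC3A2 windows TGACTCAGC begins 37 bases before the start and includes TGACTCA, the AP-1 motif, so the letters do not separate these elements. The same window holds TGATGTAA on the opposite strand 37 bases after the start, outside the printed stretch. The CHAC1 match, TGATGCAA on the opposite strand, begins 209 bases before the RefSeq start. GENCODE release 29 also has CHAC1 transcripts that start farther upstream, so all 30 printed bases are exonic in that annotation, in a 5′ UTR. The antioxidant response element core also lies in 1 of 2 GGT1 windows, and neither motif lies in the windows of GPX1 and GPX4. Across 22365 windows of genes in the count table, 13.9% hold the antioxidant response element core and 2.82% the C/EBP-ATF core. Counted by gene, 17.8% and 3.72% of 16199 genes hold them in at least 1 window. A match is a description of letters, and binding was not measured here.

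The libraries held between 11006035 and 13872810 counted reads. The 100 most counted genes took 17.5% to 19.8% of the reads in DMSO and 23.2% to 23.5% in WFA libraries, and their part in the results was not tested. All 10 myelomonocytic markers passed the filter, with a summed level of 2447 to 2992 counts per 1000000 reads (CPM) in DMSO and 2232 to 3039 in WFA libraries, most of it from LYZ. Of these 10 markers 2 rose with WFA, CD68 (281 and 362 CPM) and CSF3R (63.2 and 85.9 CPM). The 4 that fell included CD14 (5.72 and 2.45 CPM), CD33 (74.4 and 41.3 CPM) and CSF1R (237 and 180.0 CPM). Of 8 lymphoid markers 5 never exceeded 3 counts, and the list summed to at most 10.7 CPM with DMSO and 12.7 with WFA, mostly from NKG7. Erythroid and megakaryocytic markers summed to at most 0.805 CPM in a library, and of these ITGA2B had 3 to 10 counts in each library and HBA2 1 count in 1 library. The 8 genes listed as epithelial and stromal markers summed to 356 to 402 CPM with DMSO and 317 to 335 with WFA. PECAM1, which is not specific to such cells, made up nearly all of this (380 and 314 CPM) and fell. Among EPCAM, KRT8, KRT18 and CDH1 the highest mean was that of KRT8, at 0.588 CPM with DMSO and 0.619 with WFA. COL1A1 rose from 0.453 to 9.95 CPM. The part of these markers in the results was not tested.

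Of the 10 glutathione genes, 6 were higher with WFA and 0 lower when the adjusted p-value of the quasi-likelihood test (edgeR) had to be under 0.05, and 0 were lower at an unadjusted p-value under 0.05. Among all 12854 genes tested, 25.8% were higher, 24.7% lower and 50.5% changed in either direction. Because the 10 genes were chosen with earlier results of these data known, they are not an independent sample to set against these shares. The genes that rose were GCLM, SLC7A11, CHAC1, GSR, SLC3A2 and GGT1, and the genes that did not pass the threshold were GCLC, GSS, GPX1 and GPX4. In 7 of the 10, every WFA library lay above every DMSO library, as it did for 29.6% of all genes tested. The median log2 fold change was 0.90 over the 10 genes and 0.02 over all genes tested. Ordered by log2 fold change, GCLM stood at place 56, SLC7A11 at 148, CHAC1 at 170, GSR at 448, SLC3A2 at 632 and GGT1 at 2665 of the 12854 genes. The genes that did not pass the threshold stood at 4608 for GSS, 5772 for GPX4, 6727 for GCLC and 7254 for GPX1.

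**Figure D1:**
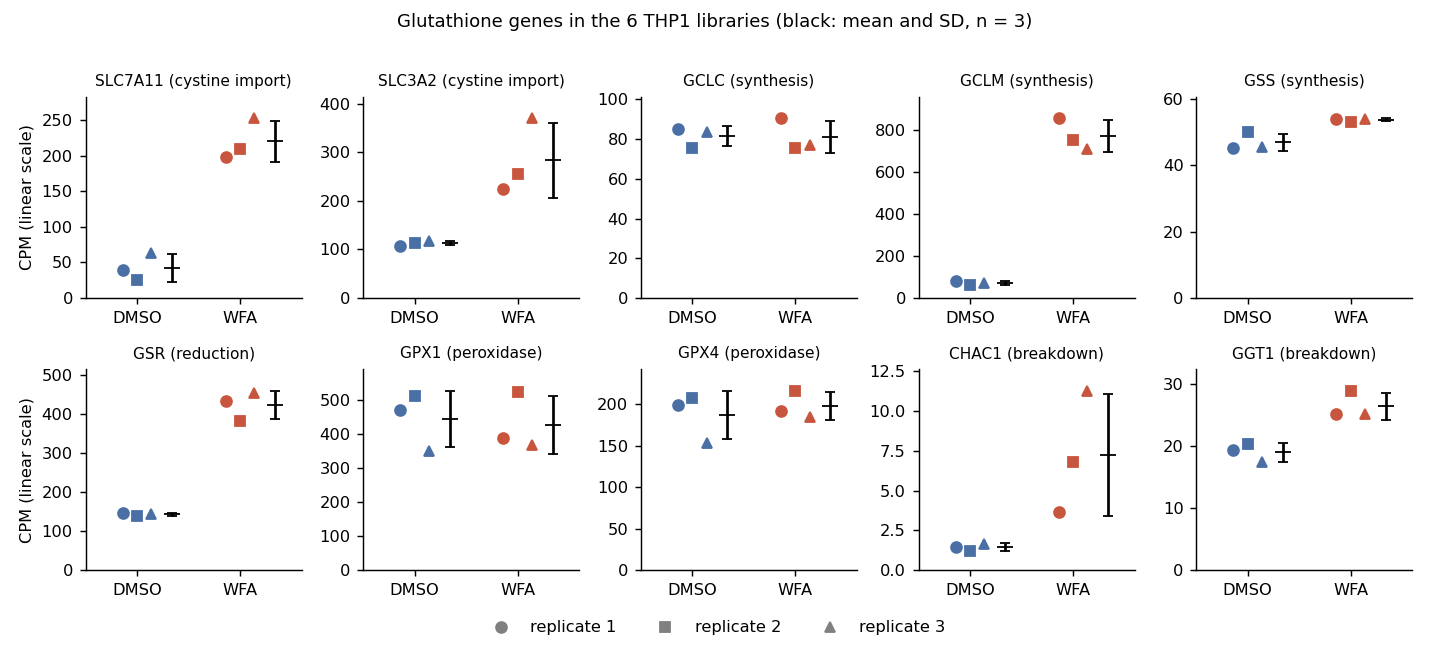
Level of each glutathione gene in CPM (vertical axes, linear and starting at 0) in the 3 DMSO and 3 WFA libraries, with a symbol for each replicate number and the mean and SD in black. GCLM rose from 71.5 to 773 CPM on average, whereas GCLC had 81.5 and 81.1 CPM.

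Cystine import was examined first. SLC7A11 encodes the light chain of the cystine-glutamate antiporter xCT, which carries the transport. It had 39.4, 24.8 and 63.0 CPM in DMSO replicates 1, 2 and 3, and 198, 209.6 and 252 CPM in the WFA replicates. The groups did not overlap, although the DMSO libraries differed 2.54-fold among themselves, the widest DMSO range of the 6 genes that rose. SLC7A11 was 5.20-fold higher with WFA (log2 difference 2.38 with standard error 0.22, adjusted p in edgeR = 5.62e-07). Its gene lies at chr4:138164097-138242349 on the minus strand, and 9.0% of its exon bases are shared with the antisense gene SLC7A11-AS1. The library kit does not mark strand, but SLC7A11-AS1 had at most 1 count in any library.

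SLC3A2 (chr11:62856102-62888875, plus strand) encodes the heavy chain that brings SLC7A11 and other light chains to the cell surface. Its DMSO libraries were close together at 108, 114 and 117 CPM, and the WFA libraries had 225, 254 and 369.8 CPM. Every WFA library was above the DMSO range, with WFA replicate 3 the highest. SLC3A2 was 2.51-fold higher (log2 difference 1.33 with standard error 0.14, adjusted p in edgeR = 2.44e-06).

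The heavy chain also serves other transporters, and 4 of 5 further light chains that pair with it were tested. SLC7A5, the large neutral amino acid transporter LAT1, rose from 131 ± 4.48 to 416 ± 92.7 CPM (SD, n = 3 each), which is 1.67 on the log2 scale (adjusted p in edgeR = 1.18e-07). SLC7A7, which exchanges cationic for neutral amino acids, fell from 26.8 ± 2.91 to 17.4 ± 1.97 CPM (SD, n = 3 each), which is -0.62 on the log2 scale (adjusted p in edgeR = 0.000952). SLC7A6 and SLC7A8 had log2 fold changes of -0.15 and 0.30 and did not pass the threshold.

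Synthesis begins with glutamate-cysteine ligase, made of the catalytic subunit GCLC and the modifier subunit GCLM, which improves the affinity of the enzyme for glutamate and lowers feedback inhibition by glutathione. GCLM (chr1:93885205-93909456, minus strand) had 81.2, 62.4 and 71.0 CPM in DMSO replicates 1, 2 and 3 and 857, 752 and 709 CPM in the WFA replicates. The WFA libraries stood far above the DMSO libraries and differed only 1.21-fold among themselves. GCLM was 10.8-fold higher (log2 difference 3.43 with standard error 0.12, adjusted p in edgeR = 2.97e-11). This was the largest change of the 10 genes.

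GCLC (chr6:53497341-53616970, minus strand) had 84.9, 75.7 and 83.8 CPM in the DMSO and 90.5, 75.6 and 77.1 CPM in the WFA libraries. The groups overlapped. The difference was -0.01 on the log2 scale (standard error 0.09, adjusted p in edgeR = 0.959), and the 95% interval of the fold ran from 0.866 to 1.14. The interval leaves out any change near that of GCLM in these libraries. In GENCODE release 29, 6.1% of the GCLC exon bases are shared with a noncoding gene that is not listed in the count table.

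GSS, glutathione synthetase (chr20:34928433-34956027, minus strand), had 45.2, 49.9 and 45.5 CPM with DMSO and 53.8, 53.2 and 54.1 CPM with WFA. The WFA libraries lay just above the DMSO libraries and within 1 CPM of each other. The fold was 1.15 with a 95% interval from 1.00 to 1.31, and the difference did not pass the threshold after adjustment (log2 difference 0.20 with standard error 0.09, adjusted p in edgeR = 0.0836). With the replicate block the adjusted p in edgeR was 0.0578.

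**Figure D2:**
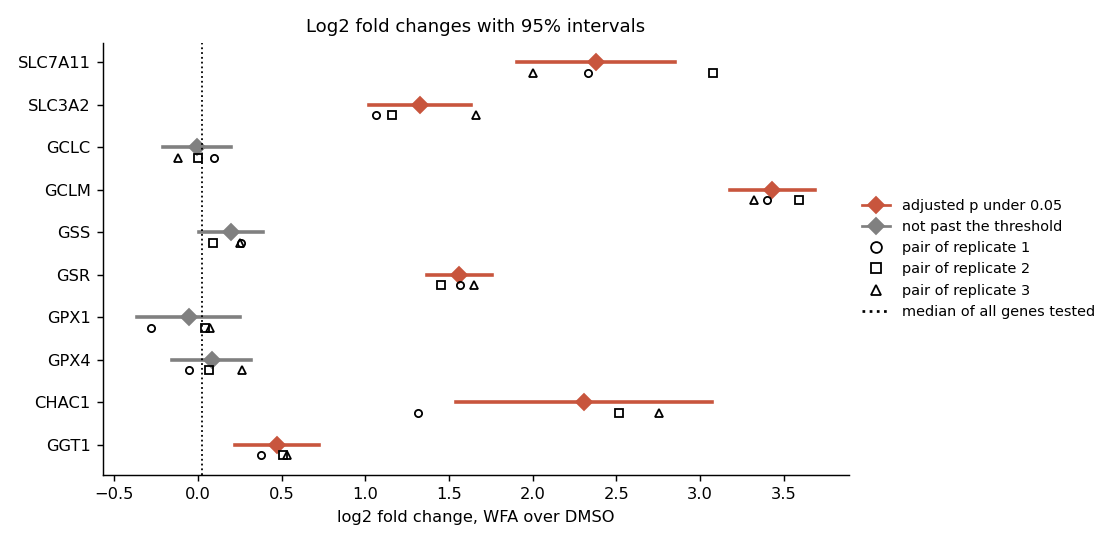
Log2 fold change of each gene, WFA over DMSO (horizontal axis), with its approximate 95% interval, derived from the edgeR test, as a line. The 3 same-numbered pairs of libraries are open symbols. The intervals of GCLM, SLC7A11, CHAC1, GSR, SLC3A2 and GGT1 lie above the dotted median of all genes tested, at 0.02, and those of GCLC, GPX1 and GPX4 include 0.

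Glutathione reductase, GSR, returns the oxidized disulfide to glutathione with electrons from NADPH. It had 147, 139.9 and 145 CPM in DMSO replicates 1, 2 and 3 and 435, 383 and 454 CPM in the WFA replicates. Both groups were tight and far apart. GSR (chr8:30678061-30727999, minus strand) was 2.95-fold higher (log2 difference 1.56 with standard error 0.09, adjusted p in edgeR = 4.45e-09).

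Neither of the peroxidases passed the threshold. GPX1, a cytosolic selenoprotein that removes hydrogen peroxide, had 472, 511 and 351 CPM with DMSO and 389, 525 and 369 CPM with WFA. GPX4, a selenoprotein that reduces lipid hydroperoxides in membranes and is known as a suppressor of ferroptosis, had 199, 207 and 154 CPM with DMSO and 192, 216 and 184 CPM with WFA. In both genes the groups overlapped, and the DMSO library with the lowest value was replicate 3. The log2 fold change was -0.06 for GPX1 (standard error 0.14, adjusted p in edgeR = 0.765), with a 95% interval of the fold from 0.777 to 1.19. It was 0.08 for GPX4 (standard error 0.11, adjusted p in edgeR = 0.565), with an interval from 0.898 to 1.25. These intervals do not show that the levels were equal, but they leave out the 2.95-fold change of GSR. GPX1 lies at chr3:49357171-49358600 on the minus strand, and GPX4 at chr19:1103926-1106791 on the plus strand.

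CHAC1 and GGT1 take glutathione apart in different places. CHAC1 is a cytosolic enzyme that splits off cysteinylglycine, is specific for reduced glutathione and is known as a target of the ATF4 and CHOP branch of the stress response. It had few reads, with 21, 15 and 20 counts in DMSO replicates 1, 2 and 3 and 45, 84 and 121 counts in the WFA replicates. These counts correspond to 1.48, 1.18 and 1.67 CPM with DMSO and to 3.68, 6.77 and 11.3 CPM with WFA. The groups did not overlap, but the WFA libraries differed 3.06-fold among themselves, the widest WFA range of the 6 genes that rose. CHAC1 (chr15:40952962-40956519, plus strand) was 4.95-fold higher (log2 difference 2.31 with standard error 0.36, adjusted p in edgeR = 8.23e-05) and a 95% interval of the fold from 2.91 to 8.42. CHAC2, a related enzyme with slower turnover, had 11.2 ± 0.971 CPM with DMSO and 8.78 ± 0.666 with WFA (SD, n = 3 each) and did not pass the threshold (log2 fold change -0.35, adjusted p in edgeR = 0.06), but passed it with the replicate block (adjusted p in edgeR = 0.0326).

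GGT1, a gamma-glutamyltransferase, cleaves glutathione on the outer face of the plasma membrane so that its amino acids can be taken up again. It had 19.4, 20.4 and 17.4 CPM with DMSO and 25.2, 29 and 25.2 CPM with WFA. The groups were separate but near each other, and the fold of 1.39 was the smallest of the 6 genes that rose (log2 fold change 0.47, standard error 0.12, adjusted p in edgeR = 0.0038). GGT1 (chr22:24583750-24629005, plus strand) belongs to a family of near-identical copies on chromosome 22, so the assignment of its reads is uncertain. The copies GGT3P, GGT8P and GGTLC2 had no counts in any library, and GGTLC1 at most 1. In the annotation 6.9% of the exon bases of GGT1 are shared with SNRPD3.

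Levels of different genes were ordered per length, as CPM per kilobase of all annotated exons joined (GENCODE release 29). With DMSO the peroxidase GPX1 stood highest at 311 ± 58.3 CPM per kilobase, followed by GPX4 at 92.5 ± 14.3 and GSR at 38.2 ± 0.933 (SD, n = 3 each). SLC3A2 had 21.8, GCLM 13.2, GCLC 9.42, GSS 7.59, SLC7A11 4.40 and GGT1 4.30 CPM per kilobase. CHAC1 was lowest at 0.701. The neighbours SLC7A11 and GGT1 did not differ by more than the sum of their SDs. With WFA the order changed. GPX1 remained first at 299 ± 59.3, but GCLM moved from place 5 to place 2 at 143 ± 14, ahead of GSR at 113 ± 9.80 and GPX4 at 97.8 ± 8.21 CPM per kilobase (SD, n = 3 each). SLC7A11 moved from place 8 to place 6 at 22.8 CPM per kilobase, above GCLC at 9.38. In the WFA order, GSR and GPX4, and GCLC and GSS, did not differ by more than the sum of their SDs. These levels depend on the length chosen, since a gene may use only some of its annotated exons.

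The ratio of reads of 2 genes within a library does not depend on the scaling between libraries. These ratios are not corrected for gene length, so only their change between the groups is described, not which gene stood higher. The number of GCLM reads per GCLC read was 0.957, 0.824 and 0.847 in DMSO replicates 1, 2 and 3, and 9.46, 9.95 and 9.19 in the WFA replicates. The log2 ratio was 3.44 higher with WFA, and its SD was 0.11 with DMSO and 0.06 with WFA (n = 3 each). The groups did not overlap. For the cystine transporter, the number of SLC7A11 reads per SLC3A2 read was 0.366, 0.218 and 0.539 with DMSO and 0.879, 0.825 and 0.683 with WFA, a difference of 1.17 in the log2 ratio. The ratio of CHAC1 to GSS differed by 1.88 on the log2 scale, and that of GPX4 to GPX1 by 0.15, where the groups overlapped. An exact two-sided permutation test over the 6 libraries gave p = 0.1 for GCLM to GCLC, SLC7A11 to SLC3A2 and CHAC1 to GSS, the smallest value that 3 libraries against 3 allow, and p = 0.3 for GPX4 to GPX1. After Benjamini-Hochberg adjustment over the 4 ratios the exact permutation p-values were 0.133 and 0.3, so none of these differences could reach the threshold by this test.

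**Figure D3:**
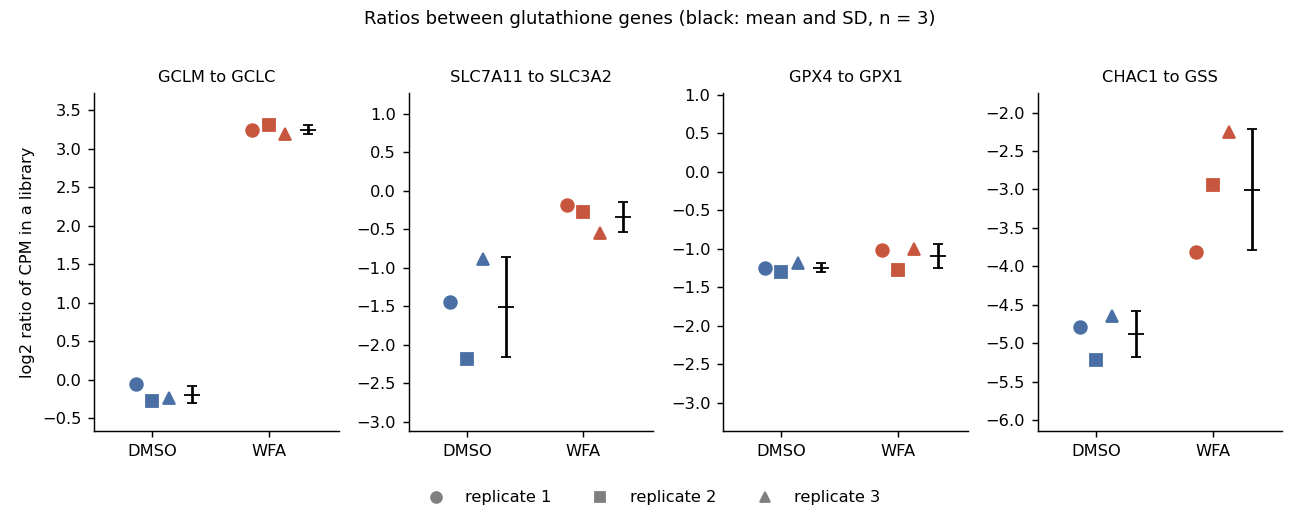
Log2 ratio of CPM between pairs of genes within each library (vertical axes, each spanning the same number of log2 units), with a symbol for each replicate number and the mean and SD in black. The log2 ratio of GCLM to GCLC, not corrected for length, lay between -0.28 and -0.063 in the DMSO libraries and between 3.20 and 3.31 in the WFA libraries, whereas the groups overlapped for GPX4 to GPX1.

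The genes that rose did not rank the WFA libraries alike. WFA replicate 3 was the highest WFA library for 4 of the 6 genes, namely SLC7A11, SLC3A2, CHAC1 and GSR, and the lowest for GCLM. The highest WFA library exceeded the lowest 3.06-fold for CHAC1 and 1.64-fold for SLC3A2, but 1.21-fold for GCLM and 1.19-fold for GSR. In the same-numbered pairs 1, 2 and 3 the log2 ratio of WFA to DMSO was 1.32, 2.51 and 2.76 for CHAC1, against 3.40, 3.59 and 3.32 for GCLM. It was 2.33, 3.08 and 2.0 for SLC7A11, where the lowest DMSO library, replicate 2, belonged to the pair with the largest ratio. Whether these differences between pairs exceed what 3 pairs can vary by was not tested.

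The other genes of the pathway were followed with 11 lists of 120 genes in all, of which 118 were in the table and 81 tested. Of these, 29 rose and 12 fell with WFA (35.8% and 14.8%, beside 25.8% and 24.7% of all genes tested), and their median log2 fold change was 0.16. The lists are described by their counts and medians only, beside the median of 0.02 over all genes. They too were chosen with earlier results of these data known.

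Among 6 further glutathione peroxidases, GPX2, GPX3, GPX5 and GPX6 were too low to be tested. GPX8, a peroxidase of the endoplasmic reticulum without selenocysteine, rose from 4.53 ± 0.785 to 16.7 ± 1.59 CPM (SD, n = 3 each), which is 1.87 on the log2 scale (adjusted p in edgeR = 3.57e-07). GPX7, its close relative, had 43.9 and 44.2 CPM and did not pass the threshold. Of 8 further genes of glutathione breakdown tested, 3 rose and 1 fell. With the replicate block 3 were lower, CHAC2 and ANPEP in addition. The genes that rose encode peptidases known to split cysteinylglycine, with log2 fold changes of 2.65 for DPEP1 (adjusted p in edgeR = 3.46e-05), 0.84 for LAP3 (adjusted p in edgeR = 3.69e-06) and 0.44 for CNDP2 (adjusted p in edgeR = 0.00166). DPEP1 was low, at 0.432 CPM with DMSO and 2.81 CPM with WFA. ANPEP, which can also split cysteinylglycine, did not pass the threshold without the block (log2 fold change -0.17, adjusted p in edgeR = 0.237), and DPEP2 and DPEP3 were too low to be tested. GGCT, which turns gamma-glutamyl amino acids into 5-oxoproline, fell by 0.37 on the log2 scale (adjusted p in edgeR = 0.00935).

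Glutathione S-transferases couple glutathione to electrophiles. Of 13 tested, 6 rose, 0 fell and 7 did not pass the threshold, and the median of the list was 0.40 on the log2 scale. At an unadjusted p-value under 0.05 in edgeR 0 were lower, in DESeq2 also 0 after adjustment, and with the replicate block, with total counts or without WFA replicate 2, GSTK1 was lower after adjustment. Over the alternatives 5 to 8 of the 13 were higher. The call of LTC4S (adjusted p in edgeR = 0.0493) was lost with total counts and without DMSO replicate 3, WFA replicate 2 or WFA replicate 3. Apart from these and the block, the alternatives were not followed for it. Only 5 were higher with DESeq2, upper-quartile scaling or the size factors of DESeq2. The same number was higher without DMSO replicate 1 or WFA replicate 1. The rises were small. GSTM3 had the smallest p-value with a log2 fold change of 0.73 (adjusted p in edgeR = 8.56e-06), followed by MGST1 with 0.43 (adjusted p in edgeR = 0.00152) and GSTA4 with 0.78 (adjusted p in edgeR = 0.0022). Reads of the GSTM genes may be shared between near-identical copies, so GSTM3 is given with that limit.

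Among 8 glutaredoxins, glyoxalases and related enzymes, 2 rose and 2 fell, and 4 were lower with total counts in the scaling. GLRX, which reduces protein disulfides formed with glutathione, had a log2 fold change of 1.05 (adjusted p in edgeR = 6.23e-06), and HAGH, the hydrolase of the glyoxalase pathway, of 0.84 (adjusted p in edgeR = 9.22e-05). GLO1, the glyoxalase that acts before it, fell from 1474 ± 32.0 to 971 ± 97.3 CPM (SD, n = 3 each), which is -0.60 on the log2 scale (adjusted p in edgeR = 0.000138). GLRX5, a mitochondrial glutaredoxin of iron-sulfur cluster assembly, had a log2 fold change of -0.46 (adjusted p in edgeR = 0.00158).

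Cysteine can also be made from methionine. Of 9 genes of the methionine cycle, transsulfuration and cysteine breakdown that were tested, 4 rose and 1 fell. Only 2 were higher without DMSO replicate 3, without WFA replicate 3 or with a minimum of 50 counts, and the calls of CTH and CDO1 were those lost without either library. There were 3 higher with DESeq2 and without DMSO replicate 1 or DMSO replicate 2, and 5 higher without WFA replicate 1. CBS, the entry enzyme of transsulfuration, was 2.56-fold higher but low, at 1.20 ± 0.160 CPM with DMSO and 3.11 ± 0.366 CPM with WFA (SD, n = 3 each, adjusted p in edgeR = 0.00053). SQRDL, the mitochondrial sulfide oxidase now named SQOR, was 2.13-fold higher (adjusted p in edgeR = 7.33e-08). MAT2A, which makes S-adenosylmethionine, had a log2 fold change of -0.67 (adjusted p in edgeR = 0.000473). Among the glutamate and neutral amino acid transporters, SLC1A5, which carries glutamine, had a log2 fold change of -0.32 (adjusted p in edgeR = 0.0233). The SLC1A5 call was lost without WFA replicate 1 (adjusted p in edgeR = 0.102) and without DMSO replicate 3 (adjusted p in edgeR = 0.0583).

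Carriers of glutathione and its conjugates moved in both directions. SLC25A40, a mitochondrial glutathione importer, fell from 67.0 ± 2.85 to 23.1 ± 5.22 CPM (SD, n = 3 each), which is -1.53 on the log2 scale (adjusted p in edgeR = 3.27e-07). Its paralog SLC25A39 had 60.3 and 59.8 CPM and did not pass the threshold. The efflux pumps ABCC3 and ABCC1 had log2 fold changes of 1.94 (adjusted p in edgeR = 2.79e-06) and 0.83 (adjusted p in edgeR = 0.00296).

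GPX1 and GPX4 are selenoproteins, and 13 further selenoprotein genes were tested, of which 5 rose and 2 fell. TXNRD1, thioredoxin reductase of the cytosol, rose from 248 ± 13.2 to 859.9 ± 17.9 CPM (SD, n = 3 each), which is 1.79 on the log2 scale (adjusted p in edgeR = 9.82e-10). SEPW1, now SELENOW, had a log2 fold change of 1.25 (adjusted p in edgeR = 1.43e-06) and EPT1, now SELENOI, of 0.88 (adjusted p in edgeR = 1.47e-06). SEPHS2, which makes the selenium donor, had one of -0.33 (adjusted p in edgeR = 0.0031) and TXNRD3 one of -0.58 (adjusted p in edgeR = 0.0139). The TXNRD3 call was lost without DMSO replicate 3 (adjusted p in edgeR = 0.0605) and without WFA replicate 2 (adjusted p in edgeR = 0.0586). Of 5 genes of selenocysteine insertion, SECISBP2 had a log2 fold change of -0.39 (adjusted p in edgeR = 0.00168) and its paralog SECISBP2L of 0.87 (adjusted p in edgeR = 3.44e-06).

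**Figure D4:**
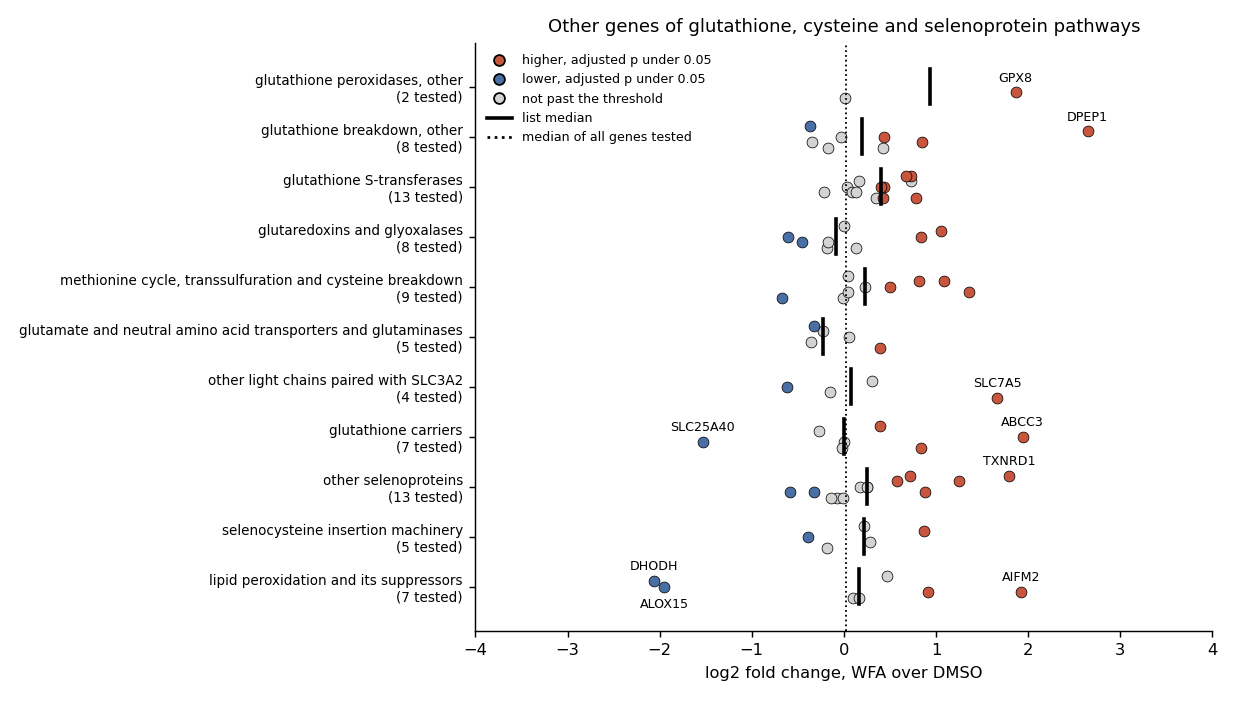
Log2 fold change, WFA over DMSO, of each tested gene on the 11 lists (horizontal axis), coloured by its call in edgeR, with the median of each list as a black bar. DPEP1, ABCC3, AIFM2, GPX8, TXNRD1 and SLC7A5 lie farthest to the right, and DHODH, ALOX15 and SLC25A40 farthest to the left.

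GPX4 is one of several activities known to limit lipid peroxidation, and 7 genes that promote or limit it were tested, of which 2 rose and 2 fell. AIFM2, also called FSP1, which regenerates ubiquinol at the plasma membrane, had 4.02 ± 1.43 CPM with DMSO and 15.3 ± 4.02 CPM with WFA (SD, n = 3 each), which is 1.92 on the log2 scale (adjusted p in edgeR = 1e-05). POR, a cytochrome P450 reductase, had a log2 fold change of 0.91 (adjusted p in edgeR = 1.21e-05). DHODH, a mitochondrial enzyme of pyrimidine synthesis that also reduces ubiquinone, fell from 18.4 ± 2.11 to 4.41 ± 0.513 CPM (SD, n = 3 each), which is -2.06 on the log2 scale (adjusted p in edgeR = 9.1e-08). ALOX15, a lipoxygenase, was near the lower limit at 1.23 ± 0.172 and 0.317 ± 0.206 CPM (SD, n = 3 each), which is -1.95 on the log2 scale (adjusted p in edgeR = 0.00234). ACSL4, which supplies polyunsaturated acyl chains to membranes, had 184 and 197 CPM and did not pass the threshold.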

How the data were processed

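Total RNA of 6 THP1 libraries was prepared with TruSeq RNA v2, a kit that does not mark strand. The authors deposited raw counts per gene and, beside them, a scaled score per library, rounded after division of the count by one size factor, which was only checked here. Their fold changes and p-values were not used. The submitters' processing notes name bcl2fastq 2.19, Trimmomatic, Bowtie2, Picard, featureCounts, DESeq2 and hg38. The annotation and the handling of multiply mapped reads are not given in the sources used here.

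Counts of all genes were fitted with edgeR 4.0.16 in R 4.3.3 (TMM, filterByExpr with a minimum count of 10, quasi-likelihood test, Benjamini-Hochberg adjustment over 12854 genes, threshold 0.05). CPM are scaled by TMM factors, and the ratios use log2 CPM with a prior count of 2. The fits were tested on simulated data. Standard errors in edgeR were derived from the log2 fold change and the F statistic of the quasi-likelihood test. Intervals are at 95% and use these standard errors, so both are approximate. The libraries held 11006035 to 13872810 counts, and precision also depends on the spread between the 3 libraries of a group.

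The same-numbered DMSO and WFA libraries carry the same code in their labels and come from 1 experiment each. Their deviations from the group means correlated at 0.22, 0.33 and 0.25 across genes for replicates 1, 2 and 3, so a fit with the replicate block is an alternative. Libraries of a group differed by more than sampling noise and were counted separately.

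The 10 genes and the lists were chosen with earlier results of these data known. Named are all 10, from each list up to 3 genes past the threshold with the smallest p-values and up to 2 against its direction, and for GCLM, SLC7A11 and CHAC1 the 3 genes with the nearest pattern. GPX7, CHAC2, SLC7A6, SLC7A8, SLC25A39, ACSL4, ANPEP, GSTK1, LTC4S, CTH, CDO1 and the marker genes given were added after their values were seen. Some items are not reported here. Alternatives were the block, DESeq2 1.42.0, other scalings and filters, a robust fit and leaving out each library.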

Additional observations from a re-analysis of the deposited data

How the results depend on the processing

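Under all 14 alternatives to the test, 6 of the glutathione genes were higher and 0 lower, except with a minimum of 50 counts in 3 libraries, where CHAC1 was not tested and 5 were higher. The replicate block changed no call among the 10 genes, and with it 34 genes of the 11 lists were higher and 18 lower, against 29 and 12. Its standard errors were near each other, 0.086 for GCLC, 0.089 for GCLM, 0.088 for SLC7A11 and 0.080 for GPX1. In the main fit they were 0.094, 0.118, 0.221 and 0.144. P-values with the block thus measure little of the spread of a single gene, and the added calls carry that limit. Without the filter on low counts they were also close, 0.10 for GCLC and 0.11 for SLC7A11. Scaling by total counts alone made 19 genes of the lists lower, and 2763 of all genes higher and 3875 lower, against 3311 and 3178 with TMM. Of the 33 list genes that the naming rule chose, 28 passed the threshold in every alternative, SLC1A5 and TXNRD3 each lost it without 2 of the single libraries, and DPEP1, CBS and ALOX15 were not tested with the minimum of 50 counts. The sign of differences that had not passed the threshold changed for GCLC (0.0073 with the minimum of 50 counts) and GPX4 (-0.0015 with total counts). Leaving out 1 library gave log2 fold changes from -0.093 to 0.042 for GCLC, from -0.23 to 0.043 for GPX1 and from -0.041 to 0.15 for GPX4, none past the threshold. It gave 3.33 to 3.53 for GCLM, 2.09 to 2.77 for SLC7A11, 1.85 to 2.63 for CHAC1, 1.51 to 1.63 for GSR, 1.09 to 1.47 for SLC3A2 and 0.40 to 0.51 for GGT1. GSS did not pass the threshold in any alternative, with adjusted p-values from 0.0578 to 0.322. No ratio between genes changed direction, and the sign-flip test over the pairs of the replicate block cannot go under 0.25. With the lowest counts of the 10 genes, between 15 and 121, CHAC1 is the least precise. Reads shared between near-identical copies were not tested. The cause of these changes was not tested.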

Other observations

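The genes whose pattern was nearest to that of 3 glutathione genes were named by the root mean square difference of log2 CPM, centred on the DMSO mean, over the 6 libraries. This is a description of likeness in these libraries, which share the treatment and the scaling. The prior count of 2 draws in the differences of genes with few reads, and 6 of the 9 nearest genes (TRPA1, CREG2, MSX1, RASGRP1, BTBD19 and GDF15) had a mean under 1 CPM with DMSO, so that likeness is weakly determined for them. Nearest to GCLM were DNAJB4, a co-chaperone of the heat shock response (difference 0.18), TRPA1, an ion channel opened by electrophiles (0.20), and CREG2 (0.22). DNAJB4 had 11.6 ± 1.68 CPM with DMSO and 133 ± 18.0 CPM with WFA (SD, n = 3 each), or 3.52 on the log2 scale (adjusted p in edgeR = 5.77e-11), whereas TRPA1 and CREG2 had 0.437 and 0.0512 CPM with DMSO and fitted log2 fold changes of 3.87 and 4.95, against 3.43 for GCLM. Nearest to SLC7A11 were MSX1, a homeobox factor (0.15), MAP1A, a microtubule-associated protein (0.23), and RASGRP1, a Ras activator (0.25), with log2 fold changes of 2.68, 2.61 and 2.79. Nearest to CHAC1 were BTBD19 (0.19), SESN2, a stress-induced sestrin (0.26), and GDF15, a secreted stress cytokine (0.26). SESN2 had 10.5 ± 0.648 CPM with DMSO and 39.7 ± 13.1 CPM with WFA (SD, n = 3 each), or 1.92 on the log2 scale (adjusted p in edgeR = 1.18e-06), with a wide spread among the WFA libraries like that of CHAC1.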
